A study of Mus musculus with 15 samples.

Results

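Cardiac transcription factors were followed through 30 probe sets of 10 genes: Gata4, Gata6, Nkx2-5, Tbx5, Tbx20, Hand2, Mef2a, Mef2c, Mef2d and Srf. Every probe set whose annotation names 1 of these genes alone was taken, out of 45096 on the array. RNA came from the heart apex of male control mice of 3 kinds, with 5 arrays each: B6C3F1 (B6C3F1/J, the first-generation cross), C3H (C3H/HeJ) and C57Bl/6 (C57BL/6J). C3H and C57Bl/6 are inbred strains and the parents of the cross. All mice carried a radiotelemetry transmitter, implanted in the abdomen at 7 weeks of age under tribromoethanol (250 mg/kg), and were killed with CO2 at 9 to 10 weeks. No group lacked the implant, so that the operation is common to every array. Phenotypes were recorded and the hearts were examined by histopathology in the same study, and the comparison here asks how the regulators of heart muscle genes stand in the cross and in its parents.

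These proteins form the core of the transcriptional network of the heart. GATA factors (Gata4, Gata6), the homeodomain factor Nkx2-5, T-box factors (Tbx5, Tbx20) and the basic helix-loop-helix factor Hand2 specify the heart chambers in the embryo and stay active in the adult myocardium. MEF2 factors (Mef2a, Mef2c, Mef2d) and Srf belong to the MADS-box family and bind A/T-rich elements in the promoters of contractile and immediate early genes, often together with the others.

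All values are log2(signal + 16) of the deposited signal, where 1 unit is a doubling of signal plus 16. Differences were tested with limma over 23048 probe sets, of which 28 belong to the factors, and a set passed at a Benjamini-Hochberg adjusted p under 0.05. The 2 sets left untested, Hand2 1443854_at and Mef2a 1442623_at, had a mean below the 40th percentile of all sets (5.74) and lay between 4.31 and 6.47 on all arrays. Different probe sets bind with different strength, so that levels are compared between strains within a set and never between sets. The positions of the probes were not set against sequence variants of the strains. Whether such variants alter the signal of a set was not tested. Heart muscle markers were bright on all arrays: the summed signal of 9 cardiomyocyte genes ran over 399900 to 587400 in B6C3F1, 397100 to 524100 in C3H and 450900 to 608800 in C57Bl/6. In such tissue RNA, fewer cells of a type and less RNA per cell cannot be told apart.

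The poly-A control RNAs, which are added during labelling, were highest on an array of C3H and lowest on an array of C57Bl/6. Their mean log2 over 24 control sets was 8.36 to 8.65 in B6C3F1, 8.79 to 10.34 in C3H and 7.58 to 9.03 in C57Bl/6. The highest value belonged to C3H replicate 4 and the lowest to C57Bl/6 replicate 5. The Gapdh 3 prime over 5 prime log2 ratio, which rises as RNA degrades, was 0.90 ± 0.21 in B6C3F1, 0.60 ± 0.26 in C3H and 0.85 ± 0.24 in C57Bl/6 (SD, n = 5 each), with C3H replicate 4 at 1.06. Results below are given also with the poly-A signal as a covariate, or without both arrays, where that ends a call. The poly-A mean was 9.19 in C3H, against 8.54 in B6C3F1 and 8.58 in C57Bl/6. Strain and poly-A signal therefore cannot be fully told apart, and a call lost with the covariate does not show which of them it followed. The sample numbers of the 3 strains do not interleave, and the labels do not say whether they record an order of handling.

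Hand2, Nkx2-5, Mef2a and Mef2c were higher in C3H than in C57Bl/6 hearts by at least 1 probe set, and Gata6 was lower. In all, 6 of the 28 sets passed (21.4%), 5 of them higher and 1 lower. Among all tested sets 13.7% passed in this contrast, 6.17% higher and 7.49% lower. The 6 sets belong to 5 of the 10 genes, but a gene with several sets has more chances to pass. With 1 set per gene, that of highest mean, 3 of the 10 genes passed, against 2052 of all 13111 genes. The passing sets differed by 0.44 to 0.58 in size on the log2 scale. The median difference over the 28 sets was 0.16, with 22 of them above 0, against -0.02 for all tested sets, of which 47.1% lay above 0. At an unadjusted p under 0.05, 11 sets differed, against 25.8% of all sets. With the poly-A signal as a covariate the count was 2, and without both arrays named above it was 2 as well. In both cases these were Hand2 1436041_at and Mef2c 1451507_at. With the Gapdh ratio as a covariate 6 sets passed, but Mef2c 1451507_at was not among them (0.34, limma adjusted p = 0.218). Gata6 1425464_at did not pass with that covariate either (-0.47, limma adjusted p = 0.104).

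**Figure D1:**
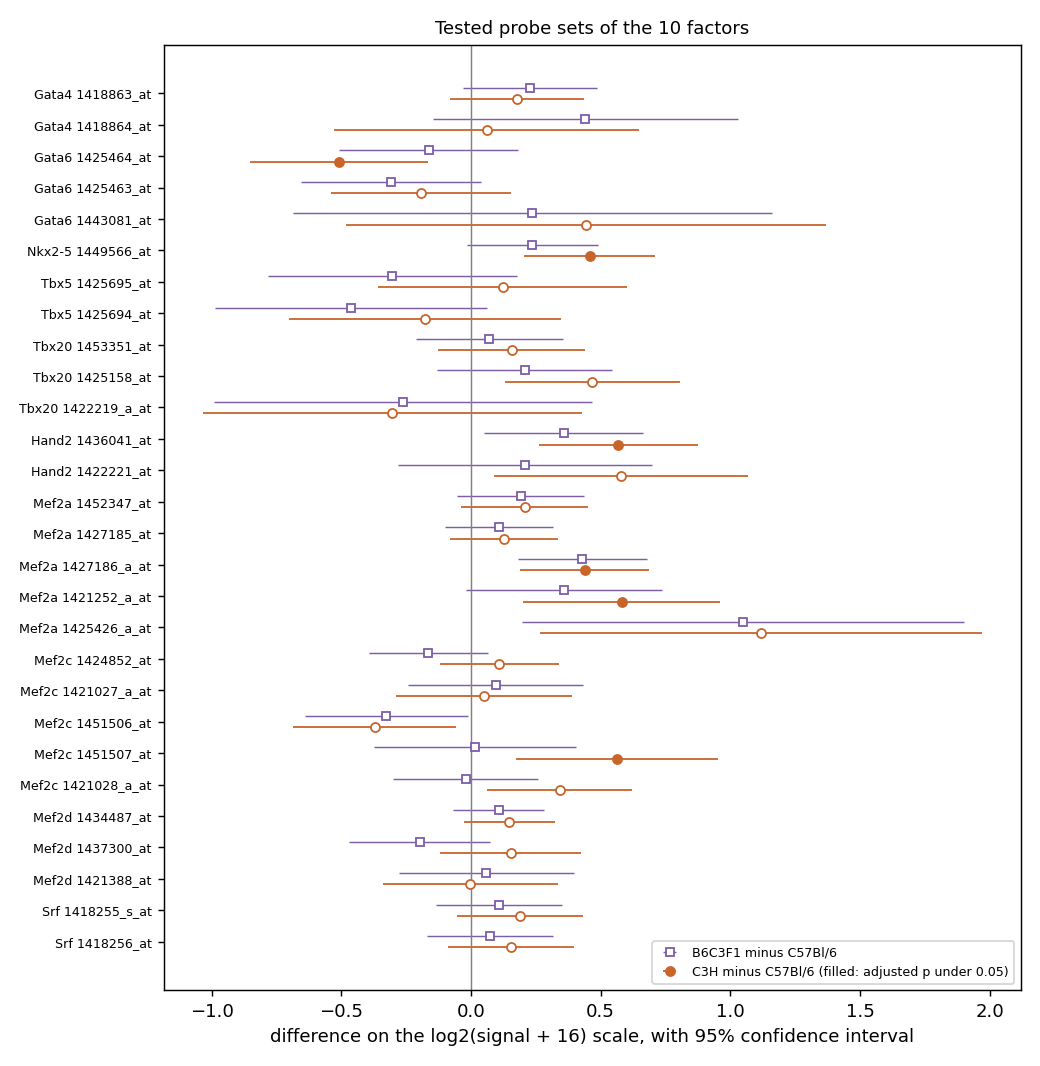
Difference from C57Bl/6 of each of the 28 tested probe sets on the log2(signal + 16) scale, with its 95% confidence interval; squares are B6C3F1 minus C57Bl/6, circles are C3H minus C57Bl/6, and filled symbols passed at an adjusted p under 0.05. The 6 filled circles are 1 set each of Gata6, Nkx2-5, Hand2 and Mef2c and 2 sets of Mef2a, and no square is filled.

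The promoters of the factors that were higher in C3H are shown because these genes moved in the same direction, and that of Srf is shown because it holds the element that SRF itself binds. The sequences are from RefSeq (GRCm38.p6), with 9 promoters for 7 of the 10 genes. No entry was found for Gata4 and Tbx5. Gata6 was left out because of the chromosome it lies on, whatever RefSeq holds for it. Each promoter is the 250 bases before the annotated start, 5′ to 3′ on the strand of the gene. Capitals mark matches on either strand to GATAA (the GATA core), GGTGT (a T-box core), AAGTG (an NKX2-5 core) and the CArG box of SRF; the MEF2 box was searched too and was found in 0 of the 9. For Mef2c, which has 3 annotated starts, the promoter with the most matches was taken.
Nkx2-5 (chr17:26841566-26841815, minus strand): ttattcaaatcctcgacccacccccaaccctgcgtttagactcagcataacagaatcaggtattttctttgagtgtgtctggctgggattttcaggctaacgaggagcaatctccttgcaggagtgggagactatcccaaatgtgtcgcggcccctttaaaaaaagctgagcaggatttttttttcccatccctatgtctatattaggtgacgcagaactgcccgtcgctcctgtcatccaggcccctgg
Hand2 (chr8:57320733-57320982, plus strand): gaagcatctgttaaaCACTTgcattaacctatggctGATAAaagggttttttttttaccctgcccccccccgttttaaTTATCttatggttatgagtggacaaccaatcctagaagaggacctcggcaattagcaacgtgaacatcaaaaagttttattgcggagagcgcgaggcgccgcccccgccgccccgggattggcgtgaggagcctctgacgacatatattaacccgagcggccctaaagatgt
Mef2a (chr7:67372859-67373108, minus strand): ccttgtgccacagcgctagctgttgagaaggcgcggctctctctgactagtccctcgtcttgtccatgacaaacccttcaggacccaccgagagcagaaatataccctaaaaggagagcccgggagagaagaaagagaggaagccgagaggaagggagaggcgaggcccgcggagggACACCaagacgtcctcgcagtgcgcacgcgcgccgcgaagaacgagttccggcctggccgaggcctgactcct
Mef2c (chr13:83523406-83523655, plus strand): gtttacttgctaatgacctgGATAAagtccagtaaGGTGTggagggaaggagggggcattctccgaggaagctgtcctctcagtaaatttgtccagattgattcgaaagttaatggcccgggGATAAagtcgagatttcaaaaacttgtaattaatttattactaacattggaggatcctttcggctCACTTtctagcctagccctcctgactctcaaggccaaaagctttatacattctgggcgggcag
Srf (chr17:46556163-46556412, minus strand): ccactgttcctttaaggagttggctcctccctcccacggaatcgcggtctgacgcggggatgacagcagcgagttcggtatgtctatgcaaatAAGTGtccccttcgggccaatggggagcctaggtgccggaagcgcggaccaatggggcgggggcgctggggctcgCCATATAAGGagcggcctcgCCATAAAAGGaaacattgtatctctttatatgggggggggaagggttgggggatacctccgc

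GATAA was found in 2 of the 9 promoters of the factors, 1 of Hand2 and 1 of Mef2c, against 22.6% of 32841 promoters of the same length. GGTGT was found in 3 of the 9 (Mef2a and 2 of Mef2c), against 36.2% of all, and AAGTG in 5 (Hand2, all 3 of Mef2c and Srf), against 40.7%. The Srf promoter alone held CArG boxes, 2 of them, at 82 and 62 bases before the start; each reads as a match on both strands, and 1.47% of all promoters hold at least 1. The MEF2 box is in 2.92% of all promoters. The Nkx2-5 window held no match to any of the 5. Matches are a description of the letters and were not tested as binding sites, and the deposited values hold no readout of binding.

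Hand2 codes for a basic helix-loop-helix factor known for forming the right ventricle in the embryo. Its set 1436041_at read 12.05, 12.25, 11.75, 11.90 and 12.07 in B6C3F1, 11.63, 12.53, 12.44, 12.23 and 12.25 in C3H, and 11.70, 11.96, 11.54, 11.33 and 11.70 in C57Bl/6. Apart from C3H replicate 1, which lay among the C57Bl/6 arrays, all C3H arrays were above all C57Bl/6 arrays. The C3H minus C57Bl/6 difference was 0.57 (SE 0.15, 1.48-fold, limma adjusted p = 0.0117), and it passed under all 31 alternatives run, with adjusted p from 0.00035 to 0.0405. The dimmer set 1422221_at differed by 0.58 in the same direction but did not pass (SE 0.23, limma adjusted p = 0.116). That set read 6.63 to 7.48 in B6C3F1, 6.98 to 7.84 in C3H and 6.53 to 7.51 in C57Bl/6.

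Nkx2-5, a homeodomain factor of heart muscle and its conduction system, has a single set on the array. Set 1449566_at read 11.67, 11.68, 11.50, 11.61 and 11.19 in B6C3F1, 11.53, 11.62, 11.90, 12.14 and 11.59 in C3H, and 11.36, 11.44, 11.35, 11.15 and 11.17 in C57Bl/6. Every C3H array was above every C57Bl/6 array, the only tested set of the factors for which the parental arrays did not overlap. Among all tested sets 10% showed no overlap, 4.4% with C3H higher. The difference was 0.46 (SE 0.12, 1.37-fold, limma adjusted p = 0.0137). With the poly-A signal as a covariate it was 0.35 and did not pass (limma adjusted p = 0.102), nor did it without the 2 outlying arrays (0.33, adjusted p = 0.098).

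Mef2a, a MADS-box factor of differentiated muscle, had 5 tested sets, all above 0 for C3H minus C57Bl/6 (0.13 to 1.12), of which 2 passed. Set 1427186_a_at read 12.23, 12.00, 12.04, 11.91 and 11.94 in B6C3F1, 12.04, 12.16, 12.27, 11.99 and 11.70 in C3H, and 11.88, 11.43, 11.50, 11.81 and 11.34 in C57Bl/6. All B6C3F1 arrays lay above all C57Bl/6 arrays, and 4 C3H arrays did so too. C3H minus C57Bl/6 was 0.44 (SE 0.12, 1.36-fold, limma adjusted p = 0.0162). The second passing set, 1421252_a_at, read 10.07, 9.75, 9.31, 9.65 and 9.71 in B6C3F1, 9.47, 10.05, 9.90, 10.59 and 9.59 in C3H, and 9.20, 9.44, 9.19, 9.71 and 9.15 in C57Bl/6. Its C3H and C57Bl/6 arrays overlapped, and the difference was 0.58 (SE 0.18, limma adjusted p = 0.0369). The suffix _a_at marks sets that bind several transcripts of 1 gene. Both lost their call with the poly-A covariate (limma adjusted p = 0.0931 for 1427186_a_at and 0.251 for 1421252_a_at). The sets 1452347_at and 1427185_at, which had the highest means of the gene, differed by 0.21 and 0.13 and did not pass. The dim set 1425426_a_at had the widest gap of all 28 sets, 1.12 with an SE of 0.41, and did not pass (limma adjusted p = 0.077); it read 4.84 to 6.76 in B6C3F1, 5.93 to 6.66 in C3H and 4.59 to 6.08 in C57Bl/6.

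Gata6, a zinc finger factor that binds GATA motifs, was the only factor with a passing set below 0. Set 1425464_at read 11.68, 11.97, 11.35, 11.98 and 11.78 in B6C3F1, 11.27, 10.87, 11.88, 11.45 and 11.57 in C3H, and 12.28, 11.85, 11.66, 12.10 and 11.69 in C57Bl/6. C3H replicate 3 lay within the C57Bl/6 range, and the other C3H arrays lay below it. The difference was -0.51 (SE 0.16, 1.42-fold lower, limma adjusted p = 0.0441). With the poly-A covariate it was -0.57 and did not pass (limma adjusted p = 0.0647), nor did it without both outlying arrays (-0.58, adjusted p = 0.0652). It passed in 15 of 31 alternatives; the limma adjusted p reached 0.135 when each array was centred on its median and 0.131 without C3H replicate 2. The other sets of the gene differed by -0.19 (1425463_at) and 0.44 (1443081_at) and did not pass.

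**Figure D2:**
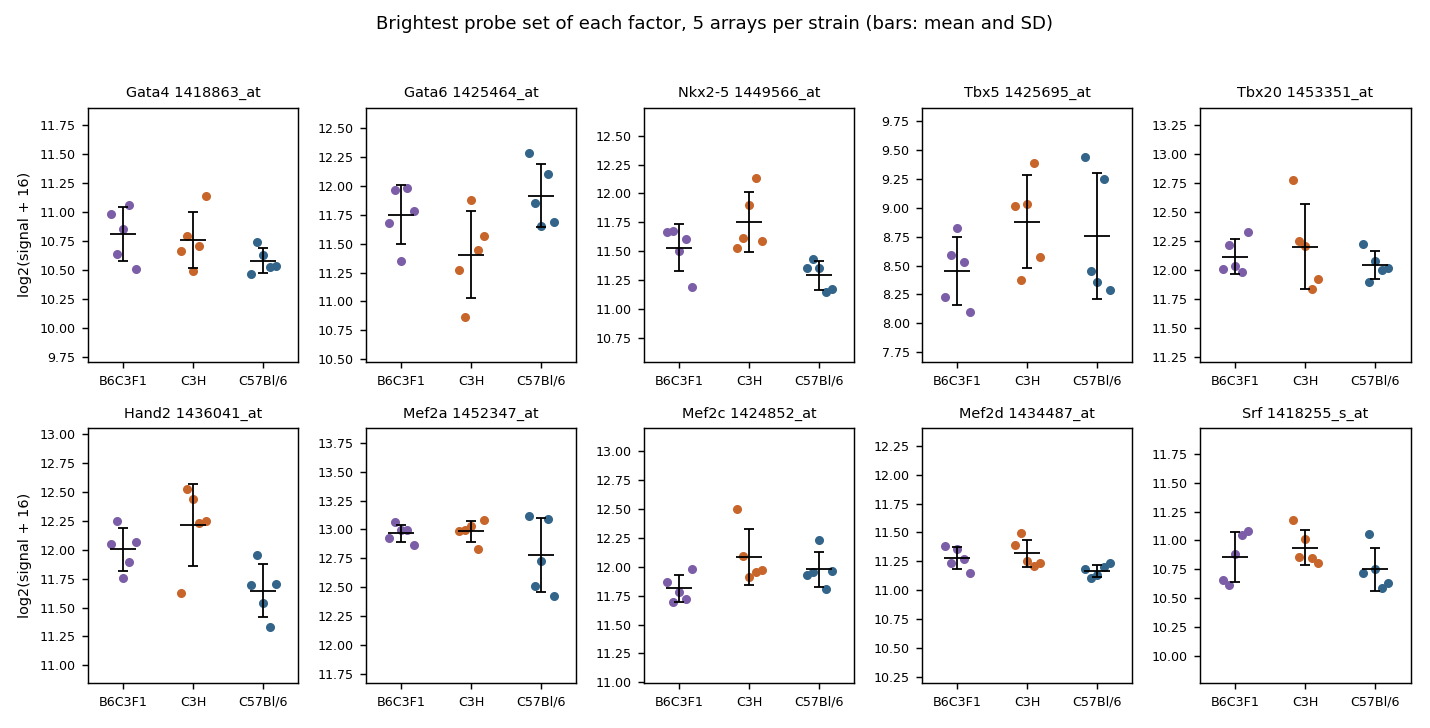
Log2(signal + 16) of the probe set of highest mean for each of the 10 factors, with 1 point per array and bars for the mean and SD of 5 arrays per strain. For Nkx2-5 1449566_at the C3H points (11.53 to 12.14) lie above all C57Bl/6 points (11.15 to 11.44); the axes differ between panels but span the same number of log2 units.

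Mef2c, the MEF2 factor whose loss arrests heart looping in mouse embryos, gave opposite signs by probe set. Set 1451507_at read 9.01, 8.55, 8.52, 8.95 and 9.28 in B6C3F1, 9.86, 9.24, 9.48, 9.16 and 9.30 in C3H, and 9.21, 8.43, 8.99, 8.45 and 9.14 in C57Bl/6. It was higher in C3H than in C57Bl/6 by 0.56 (SE 0.19, 1.48-fold, limma adjusted p = 0.0494), a call that held in 15 of 30 alternatives, with adjusted p from 0.0188 to 0.218. Only C3H replicate 4 lay within the C57Bl/6 range. Set 1451506_at read 9.34, 9.13, 9.15, 9.44 and 9.57 in B6C3F1, 9.91, 9.17, 9.23, 9.02 and 9.08 in C3H, and 9.81, 9.49, 9.65, 9.49 and 9.82 in C57Bl/6. Here 4 C3H arrays lay below all C57Bl/6 arrays and C3H replicate 1 lay above them, and the difference of -0.37 did not pass (SE 0.15, limma adjusted p = 0.117). Without C3H replicate 1 it was -0.53 and passed (limma adjusted p = 0.00559). The other 3 sets of the gene differed by 0.05 to 0.34 and did not pass.

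Because the array of each mouse carries both Mef2c sets, their gap can be taken within an array. The log2 gap 1451506_at minus 1451507_at was 0.33, 0.58, 0.64, 0.49 and 0.29 in B6C3F1, 0.04, -0.07, -0.25, -0.15 and -0.22 in C3H, and 0.60, 1.06, 0.66, 1.04 and 0.68 in C57Bl/6. The C3H values did not overlap those of either other group. An exact two-sided permutation test of C3H against C57Bl/6 gave p = 0.00794, the smallest that 5 against 5 arrays can give. This test was chosen after the values were seen and was therefore run on all 33 pairs of tested sets of the same gene. After Benjamini-Hochberg adjustment over those 33 pairs the exact p was 0.0873, so that the gap did not pass. The same smallest p was found for 3 pairs, all of Mef2c and all including 1451506_at, and the difference of this gap between C3H and C57Bl/6 was -0.93.

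**Figure D3:**
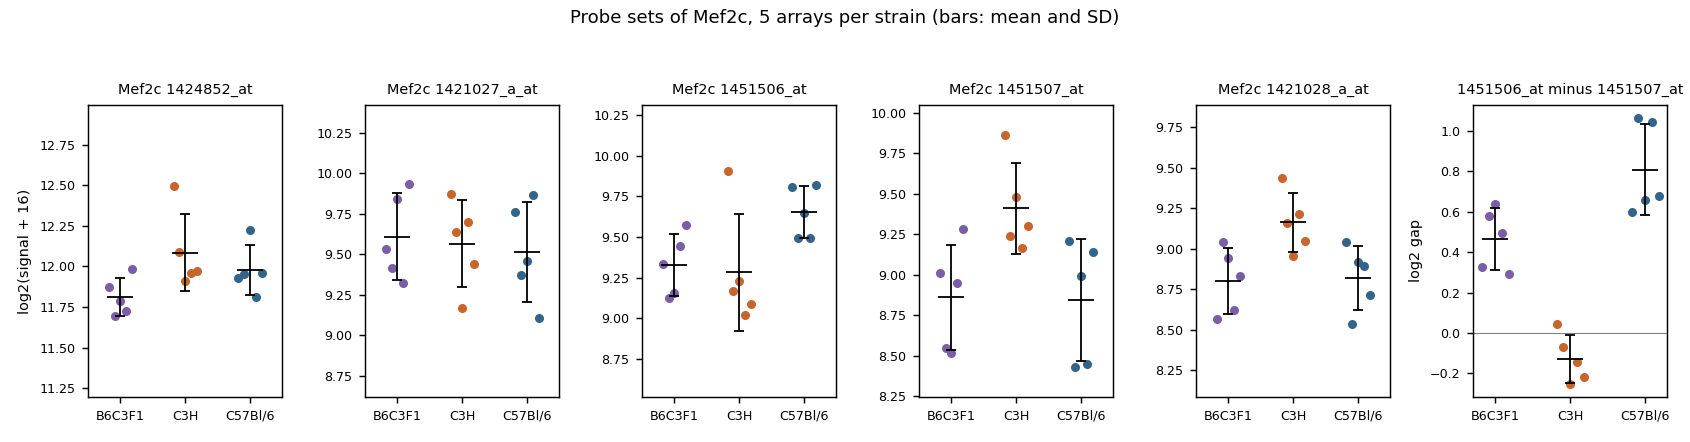
The 5 Mef2c probe sets by strain and, in the right panel, the gap 1451506_at minus 1451507_at within each array, on log2 scales, with 1 point per array and bars for the mean and SD of 5 arrays. In the right panel the C3H points lie between -0.25 and 0.04, below all B6C3F1 points (0.29 to 0.64) and all C57Bl/6 points (0.60 to 1.06).

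The remaining factors had no passing set in any contrast. Gata4, a GATA factor of heart muscle growth, averaged 10.81 ± 0.23 in B6C3F1, 10.76 ± 0.24 in C3H and 10.58 ± 0.11 in C57Bl/6 by set 1418863_at (SD, n = 5 each). Tbx5, the T-box factor known from Holt-Oram syndrome in humans, averaged 8.45 ± 0.29, 8.88 ± 0.40 and 8.76 ± 0.54 in B6C3F1, C3H and C57Bl/6 by set 1425695_at. For Tbx20, a T-box factor needed for adult cardiomyocyte function in the mouse, set 1453351_at averaged 12.11 ± 0.15 in B6C3F1, 12.20 ± 0.37 in C3H and 12.04 ± 0.12 in C57Bl/6. Neighbours in these orders differed by less than 2 of their SEs. A second Tbx20 set, 1425158_at, differed by 0.47 between C3H and C57Bl/6 and narrowly missed the threshold (SE 0.16, limma adjusted p = 0.0612), while the dim set 1422219_a_at differed by -0.30. Mef2d, a MEF2 factor known from stress-induced hypertrophy in mice, averaged 11.28 ± 0.10, 11.32 ± 0.12 and 11.17 ± 0.05 in B6C3F1, C3H and C57Bl/6 by set 1434487_at. Srf, the serum response factor, averaged 10.86 ± 0.22 in B6C3F1, 10.94 ± 0.15 in C3H and 10.75 ± 0.19 in C57Bl/6 by set 1418255_s_at, and its second set, 1418256_at, averaged 10.06 ± 0.18, 10.14 ± 0.12 and 9.99 ± 0.20 in the same order of strains. Both Srf sets thus stood in the order C3H, B6C3F1, C57Bl/6 with steps below the spread between mice. For the 95% confidence interval, the C3H minus C57Bl/6 difference of Srf 1418255_s_at ran from -0.06 to 0.43, that of Gata4 1418863_at from -0.08 to 0.44 and that of Mef2d 1434487_at from -0.03 to 0.32.

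In the cross no set of the factors passed against either parent or against the midparent, the mean of the 2 parental log2 means. For B6C3F1 minus C57Bl/6, 0 of 28 sets passed where 3.18% of all tested sets did, and 4 were at an unadjusted limma p under 0.05 (19.2% of all sets). For B6C3F1 minus C3H, 0 of 28 passed where 5.15% of all sets did, and 5 were at an unadjusted limma p under 0.05 (17.8% of all sets). For B6C3F1 minus midparent, 0 of 28 passed where 0.573% did, and 2 were at an unadjusted limma p under 0.05 (13.6% of all sets). These contrasts share arrays and are not independent of each other. The nearest to the threshold was Mef2a 1427186_a_at, with B6C3F1 minus C57Bl/6 at 0.43 (SE 0.12, 1.35-fold, limma adjusted p = 0.0522), and it passed in 13 of 29 alternatives. Its B6C3F1 arrays (11.91 to 12.23) lay above all C57Bl/6 arrays (11.34 to 11.88), while 5.55% of all tested sets showed no overlap in this contrast, 2.71% with B6C3F1 higher. For Mef2d 1437300_at the B6C3F1 arrays (9.26 to 9.85) lay below all C3H arrays (9.86 to 10.08), while 5.75% of all sets showed no overlap, 2.38% with B6C3F1 lower, but the difference of -0.35 did not pass (SE 0.13, limma adjusted p = 0.138). The smallest adjusted p against C3H was that of Mef2c 1451507_at (-0.55, SE 0.19, limma adjusted p = 0.101).

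The mean of the cross lay between both parental means for 18 of the 28 sets, above both for 4 and below both for 6; among all tested sets 41.3% were between. It lay between them for all 6 sets that passed between the parents, as it did for 88.4% of all 3148 such sets. On a scale from 0 at the C57Bl/6 mean to 1 at the C3H mean, the cross stood at 0.52 for Nkx2-5, 0.63 for Hand2 1436041_at, 0.62 for Mef2a 1421252_a_at and 0.32 for Gata6 1425464_at. It stood at 0.98, close to C3H, for Mef2a 1427186_a_at, and at 0.03, close to C57Bl/6, for Mef2c 1451507_at. None of these sets differed from the midparent beyond the threshold.

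Coregulators of the factors were followed as a list of partners. Of 21 such genes tested by their set of highest mean, 1 was higher and 1 lower in C3H than in C57Bl/6, with a list median of -0.08 against -0.02 for all genes; among all 13111 genes 15% passed, 6.96% higher and 8.06% lower. Smarcd3, the BAF chromatin remodelling subunit that works with GATA4 and TBX5 in the mouse embryo, averaged 11.33 ± 0.23 in B6C3F1, 11.67 ± 0.21 in C3H and 11.05 ± 0.13 in C57Bl/6 (SD, n = 5 each). Its C3H minus C57Bl/6 difference was 0.62 (SE 0.12, limma adjusted p = 0.00111). Tead1, a TEA domain factor of muscle genes, averaged 12.23 ± 0.29 in B6C3F1, 12.06 ± 0.20 in C3H and 12.48 ± 0.08 in C57Bl/6, and C3H minus C57Bl/6 was -0.42 (SE 0.12, limma adjusted p = 0.0233). Tead1 lost its call with the poly-A covariate (limma adjusted p = 0.0956). Myocd, the heart and smooth muscle coactivator of SRF, differed by -0.48 and did not pass (limma adjusted p = 0.0605), nor did Zfpm2, the GATA4 partner FOG2 (0.04).

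Of 17 other developmental transcription factors of the heart that were tested, 4 were higher in C3H than in C57Bl/6 and 0 lower, where 6.96% of all genes were higher and 8.06% lower. The list median was 0.30, against -0.02 for all genes. This list, like the others, was chosen with earlier results of these data known, so that its counts are a description. Tbx18, a T-box factor of the sinus node and epicardium in development, averaged 8.50 ± 0.29 in B6C3F1, 9.30 ± 0.14 in C3H and 7.96 ± 0.30 in C57Bl/6, a C3H minus C57Bl/6 difference of 1.34 (SE 0.16, 2.53-fold, limma adjusted p = 4.3e-06). Irx5, a homeodomain factor that shapes the repolarisation gradient of the mouse ventricle, averaged 9.66 ± 0.41 in B6C3F1, 10.06 ± 0.11 in C3H and 9.03 ± 0.18 in C57Bl/6 and differed between the parents by 1.03 (SE 0.16, limma adjusted p = 7.9e-05). Irx3, a factor of the fast ventricular conduction system, differed by 0.89 (SE 0.13, limma adjusted p = 3.65e-05), and Irx4, a ventricular factor, by 0.51 (SE 0.15, limma adjusted p = 0.0242). Irx4 lost its call with the poly-A covariate (limma adjusted p = 0.164), while Tbx18, Irx5 and Irx3 passed under all 31 alternatives. In the cross, Irx5 was higher than in C57Bl/6 (0.63, SE 0.16, limma adjusted p = 0.0301), where 3.47% of all genes passed, 1.91% being higher; it did not pass without both outlying arrays (limma adjusted p = 0.0696). Tbx18 (-0.80), Irx3 (-0.48) and Tbx3 (-0.91), a T-box repressor of the conduction system, were lower in the cross than in C3H, where 5.81% of all genes passed, 2.43% being lower; their limma adjusted p was 0.00388, 0.03 and 0.0158. With the poly-A covariate Irx3 and Tbx3 did not pass in that contrast (limma adjusted p = 0.127 and 0.106), and Irx3 did not pass without both outlying arrays either (0.09).

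Of 21 tested heart muscle genes known as targets of the factors, 2 were higher in C3H than in C57Bl/6 and 0 lower, where 15% of all genes passed, and the list median was -0.15. Myh7, the slow myosin heavy chain of the fetal heart in mice, averaged 10.49 ± 0.31 in B6C3F1, 11.66 ± 0.40 in C3H and 9.20 ± 0.20 in C57Bl/6, and C3H minus C57Bl/6 was 2.46 (SE 0.17, 5.51-fold, limma adjusted p = 1.72e-09). Slc8a1, the sodium-calcium exchanger, averaged 10.82 ± 0.20 in B6C3F1, 11.34 ± 0.12 in C3H and 10.13 ± 0.24 in C57Bl/6, a difference of 1.21 (SE 0.12, limma adjusted p = 3.48e-07). Both were also higher in the cross than in C57Bl/6 (1.29 for Myh7 and 0.70 for Slc8a1; limma adjusted p = 0.000114 and 0.00199) and lower in the cross than in C3H (-1.17 and -0.51; limma adjusted p = 0.00019 and 0.0138). With the poly-A covariate Slc8a1 did not pass against C3H (limma adjusted p = 0.133). Myh6, the fast adult isoform (-0.26), Actc1, cardiac actin (-0.21), and Tnnt2, cardiac troponin T (-0.19), did not pass between the parents.

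Among 21 tested SRF targets, 4 were higher in C3H than in C57Bl/6 and 0 lower, where 6.96% of all genes were higher and 8.06% lower; the list median was 0.13. They were Ccn2, a matricellular growth factor (0.91, SE 0.23, limma adjusted p = 0.00995), Fhl1, a LIM protein of the sarcomere (0.73, SE 0.11, adjusted p = 4.87e-05), Junb, an AP-1 subunit (0.61, SE 0.15, adjusted p = 0.00854), and Zyx, a focal adhesion protein (0.40, SE 0.12, adjusted p = 0.0268). Fhl1 averaged 13.25 ± 0.17 in B6C3F1, 13.72 ± 0.18 in C3H and 12.99 ± 0.17 in C57Bl/6, and was the only target of this list lower in the cross than in C3H (-0.47, SE 0.11, limma adjusted p = 0.00977), a call lost with the poly-A covariate (limma adjusted p = 0.0976). The immediate early genes Fos (0.66), Egr1 (-0.04) and Egr3 (0.52) did not pass. Of 9 tested MEF2 targets, 1 was higher and 1 lower, where 15% of all genes passed, and the median was 0.21. Xirp1, a protein of the intercalated disc, was higher by 0.55 (SE 0.17, limma adjusted p = 0.0288), a call lost with the poly-A covariate (limma adjusted p = 0.186). Myom1, the M-band protein myomesin, averaged 14.09 ± 0.17 in B6C3F1, 13.78 ± 0.26 in C3H and 14.48 ± 0.06 in C57Bl/6 and C3H minus C57Bl/6 was -0.70 (SE 0.11, limma adjusted p = 0.000103).

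**Figure D4:**
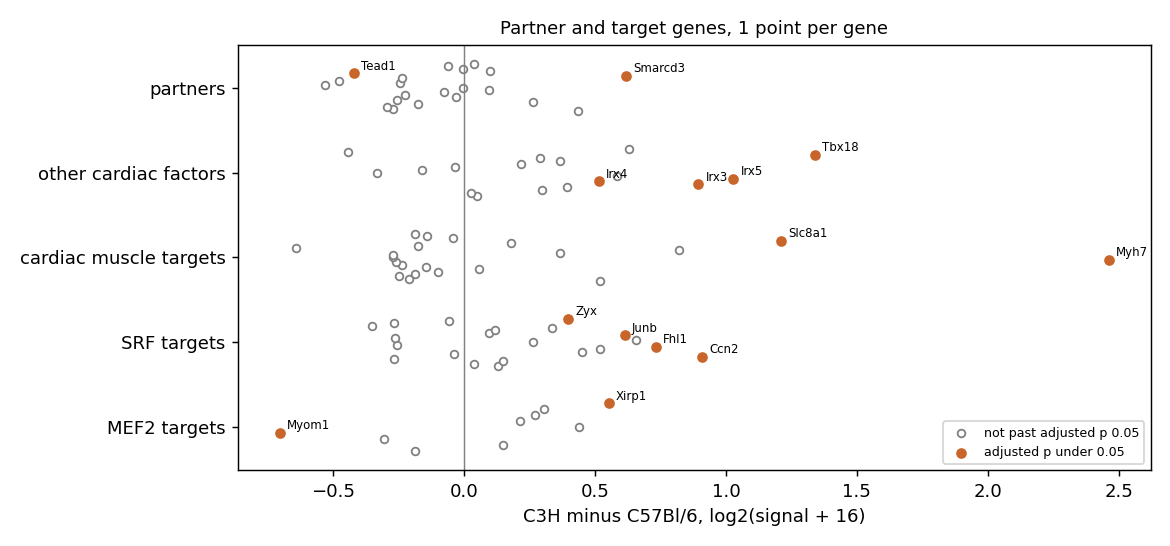
C3H minus C57Bl/6 difference on the log2(signal + 16) scale for genes of 5 lists (partners, other cardiac factors, cardiac muscle targets, SRF targets, MEF2 targets), with 1 point per gene by its probe set of highest mean; filled points passed at an adjusted p under 0.05 and are named. Myh7, at 2.46, lies farthest to the right, and Tead1 and Myom1 are the only filled points below 0.

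Some markers of other cell types passed in the parental contrast, where 15% of all genes passed, 6.96% higher and 8.06% lower. Fibroblast markers were higher in C3H than in C57Bl/6 for 3 of 8 genes (Tcf21 0.76, Dcn 0.41 and Lum 0.57). The other 5 (Pdgfra 0.06, Col1a2 0.08, Postn -0.18, Col1a1 -0.50 and Col3a1 -0.58) did not pass, and the list median was 0.07. The summed signal of all 8 was 45500 to 53820 in B6C3F1, 39220 to 58570 in C3H and 32950 to 45650 in C57Bl/6. Endothelial markers were lower for 2 of 7 (Cdh5 -0.56 and Cldn5 -0.66). The others (Pecam1 -0.68, Tie1 -0.54, Kdr -0.41, Tek -0.40 and Emcn -0.12) were also below 0 but did not pass. Their list median was -0.54, against -0.02 for all genes. The summed signal of all 7 was 7686 to 12320 in B6C3F1, 6092 to 10430 in C3H and 9058 to 11910 in C57Bl/6. Of 5 tested atrial markers Myl4 was higher (1.16) and Kcna5 lower (-0.93), and the summed signal of all 6 listed was 8281 to 19170, 9281 to 20650 and 7700 to 10620 in B6C3F1, C3H and C57Bl/6. Of 5 tested smooth muscle and pericyte markers Rgs5 was lower (-0.40). The others (Pdgfrb 0.35, Acta2 0.13, Myh11 0.12 and Tagln -0.35) did not pass, and the list median was 0.12. Of 6 macrophage markers Cd68 was higher (0.77) and Adgre1 lower (-0.62). The erythroid marker Alas2 was lower (-0.79, limma adjusted p = 0.0166). With the poly-A covariate Dcn, Cdh5, Kcna5 and Adgre1 did not pass (limma adjusted p = 0.0584, 0.107, 0.0575 and 0.168), and without both outlying arrays Cdh5, Kcna5 and Adgre1 did not (0.0768, 0.0515 and 0.137). The 9 cardiomyocyte markers had 0 passing genes at an adjusted p under 0.05, with a median of -0.19. Markers whose mean lay below the filter were Sln (atrial), Cnn1 (smooth muscle), Adipoq and Lep (adipocyte), Hba-a1 (erythroid) and Myh4, Myh2, Tnnt3 and Pvalb (skeletal muscle). The part of these cell types in the differences of the factors was not tested.

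Sets of the same gene did not move as one. Over the 15 arrays, with the strain means taken off, Pearson's r between 2 sets of a gene ran from -0.57 (Mef2a 1452347_at and 1425426_a_at) to 0.86 (Mef2c 1451506_at and 1451507_at). Between the sets of highest mean of different factors, r ran from -0.58 (Gata6 and Mef2d) to 0.70 (Tbx20 and Mef2c). These are descriptions over arrays that share scaling and labelling. The genes whose pattern over the 15 arrays was most like that of a factor, taken as the highest r among 13101 genes and so high by choice, were Ano10 (r = 0.94), Ninj1 and Smim4 for Nkx2-5. For Hand2 they were Coq6 (0.90), Ccl8 and Tmem120b, and for Gata6 Asb14 (0.79), Plscr4 and Rab28. The nearest for Gata4 were Phkg2 (0.85), Ak1 and Cdc42ep2, for Tbx5 Ivd (0.93), Bnip3 and Dcaf11, and for Tbx20 Atp6ap1 (0.88), Dsc2 and Slk. Mef2a had Arhgap27 (0.87), Cpd and Glrb, Mef2c had Socs7 (0.91), Sall4 and Fbxo45, Mef2d had Elk3 (0.82), Epm2aip1 and Bace1, and Srf had Klhl2 (0.78), Cyb5rl and Hey1. With the strain means taken off, Ano10 stayed among the 3 nearest of Nkx2-5 (0.89), after Rttn (0.91) and Marchf2 (0.90), while the 3 nearest of Hand2 were Fanca (0.86), Amacr and Scn2b.

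The 6 calls differed in how they held under other processing. Hand2 1436041_at passed in 31 of 31 alternatives, Nkx2-5 1449566_at in 29 of 31, Mef2a 1427186_a_at in 25 of 29, Mef2a 1421252_a_at in 19 of 29, Gata6 1425464_at in 15 of 31 and Mef2c 1451507_at in 15 of 30. Their direction was the same in every alternative run.

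**Figure D5:**
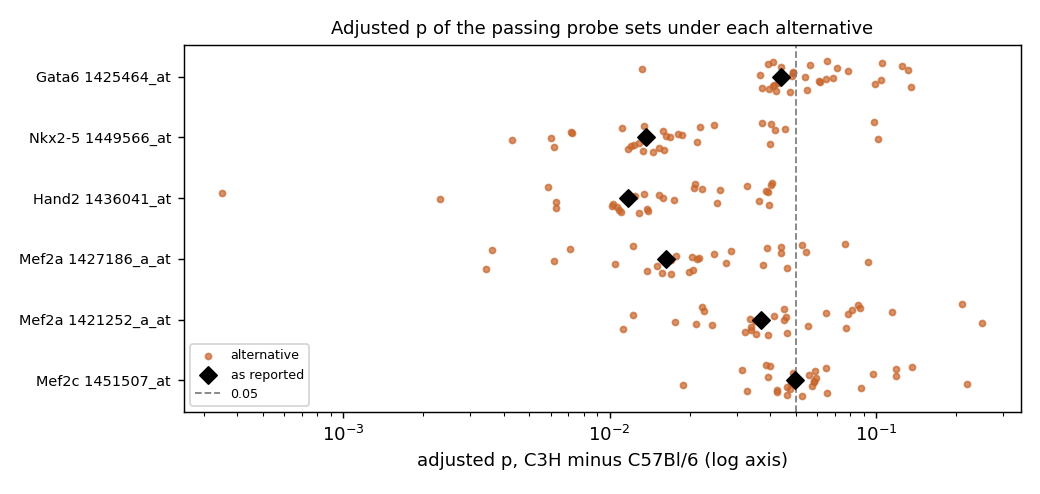
Limma adjusted p of the C3H minus C57Bl/6 difference for the 6 passing probe sets, on a log axis, as reported (diamonds) and under each alternative (points); the dashed line is the threshold of 0.05. All points of Hand2 1436041_at lie left of the line, whereas those of Gata6 1425464_at and Mef2c 1451507_at lie on both sides of it.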

How the data were processed

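Affymetrix mouse array values, 1 per probe set, were deposited as log2 values by the authors; the submitters' processing notes name MAS5, with no version. The log2 step and the scaling (2% trimmed mean close to 500.26 on each array) were read from the values. Signals were back-transformed to linear, and log2 was taken after adding a pseudocount of 16. Of 45096 probe sets, 34940 have 1 symbol; 932 with several, 9160 with none and 64 controls were left out. Sets below the 40th percentile of means were not tested. The fit was limma 3.58.1 in R 4.3.3 (lmFit, eBayes with trend, all 15 arrays, Benjamini-Hochberg over 23048 sets), and it was checked on simulated data. Lists use the set of highest mean per gene. Named are all 10 factors, up to 4 passing genes per list and the 3 most alike genes per factor; other genes named as not passing were picked with their values in view. The factors and lists were chosen with earlier results of these data known. Some listed genes are not reported here. The labels give 5 separate mice per strain; array data have no depth, so the number of arrays limits the precision. Alternatives covered pseudocount, filter, scaling, set choice, eBayes settings, covariates, array weights, a replicate block and leaving out each array.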

Additional observations from a re-analysis of the deposited data

Results flagged for a closer look

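In 5 of 90 groups of 5 arrays, 1 array lay far from the others of its strain by Dixon's test at the 95% level, which chance does in about 1 of 20 groups. C57Bl/6 replicate 5 read 5.97 for Gata4 1418864_at, against 6.98 to 7.30 on the other C57Bl/6 arrays. C3H replicate 2 read 4.78 for Tbx20 1422219_a_at, against 6.16 to 6.71 on the other C3H arrays. C3H replicate 1 read 9.91 for Mef2c 1451506_at, against 9.02 to 9.23 on the other C3H arrays. C3H replicate 4 had a poly-A control mean of 10.34, against 8.79 to 9.05, and a Gapdh 3 prime over 5 prime log2 ratio of 1.06, against 0.39 to 0.56 on the other C3H arrays.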

How the results depend on the processing

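Of the 28 sets in C3H minus C57Bl/6, 6 passed; with 1 probe set per gene 3 of the 10 sets then tested passed. Without the intensity trend the count over the 28 was 3, and with only the 2 strains compared it was 3 of 27 tested. It was 2 with the poly-A covariate and 2 without both arrays of outlying poly-A signal (an alternative chosen after seeing the data). When each array was left out it was 3 to 7, lowest without C3H replicate 3. The calls of all sets in that contrast were 3148, and 2052 with 1 set per gene. In B6C3F1 minus C57Bl/6 no set passed, but 1, Mef2a 1427186_a_at, passed with pseudocount 64, a 60th percentile filter, quantile normalization, median centring, robust eBayes, only the 2 strains, the replicate block, the poly-A covariate or array weights, and 0 to 1 when each array was left out. All sets in that contrast gave 734 calls, 483 with median centring, 418 without the trend, 1745 with array weights and 400 to 1277 when each array was left out. In B6C3F1 minus C3H, 1 set passed with the replicate block (Mef2c 1451507_at, limma adjusted p = 0.0438) and 1 with the Gapdh covariate (Tbx5 1425695_at, -0.77, limma adjusted p = 0.0427), and all sets gave 618 calls with the poly-A covariate against 1186. Against the midparent all sets gave 132 calls, 83 with 1 set per gene, 324 with array weights and 85 to 313 when each array was left out. With median centring, the median C3H minus C57Bl/6 difference of all sets was 0.08 against -0.02 and the share of higher calls 65.4% against 45.2%; that share was 66.9% against 53.5% in B6C3F1 minus C57Bl/6 and 43.8% against 60.2% in B6C3F1 minus C3H. After centring 7 sets of the factors passed and Gata6 was not among them.

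Of the list counts in C3H minus C57Bl/6, partners (2) gave 1 with centring or no trend, 4 with array weights and 1 to 4 when each array was left out. MEF2 targets (2) gave 4 with centring, 5 with the Gapdh covariate, 1 with no trend, the poly-A covariate or both arrays left out, and 1 to 3 when each array was left out. In B6C3F1 minus C57Bl/6, partners (0) gave 1 with array weights and 0 to 3 over left-out arrays. Other cardiac factors (1) gave 0 with no trend or both arrays left out, 2 with array weights and 0 to 2 over left-out arrays. SRF targets (0) gave 1 without _x_at, _s_at and _a_at sets, 1 without both arrays and 0 to 1 over left-out arrays, and MEF2 targets (0) gave 1 with pseudocount 64, a 60th percentile filter, quantile normalization, 1 set per gene, robust eBayes, only the 2 strains, the poly-A covariate, array weights or both arrays left out, and 0 to 1 over left-out arrays. In B6C3F1 minus C3H, other cardiac factors (3) gave 1 with the poly-A covariate and 1 to 3 over left-out arrays, muscle targets (2) gave 1 with that covariate and 2 to 4 over left-out arrays, and SRF targets (1) gave 2 with the Gapdh covariate and 0 with the poly-A covariate. Partners and MEF2 targets (0 each) gave 0 to 1 over left-out arrays in that contrast. Muscle targets against the midparent (0) gave 1 with the replicate block and 0 to 1 over left-out arrays. The causes were not tested.

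Same-numbered arrays did not deviate together (r from -0.06 to 0.11 over 15 pairs, 1 above 0.1). The replicate numbers follow the order of the samples within each strain, so these r values cannot show whether mice were paired. With the replicate block 6 sets of the factors passed between the parents, 5 of them shared with the reported fit. Tbx20 1425158_at was gained and Gata6 1425464_at lost.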
